A study of Mus musculus with 2 samples.

Results

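Most synaptotagmins are membrane proteins of synaptic and other secretory vesicles. Rows were taken for 10 listed genes, Syt1, Syt2, Syt3, Syt4, Syt5, Syt7, Syt11, Syt12, Syt13 and Syt17, by matching gene identifiers without version to GENCODE M21 symbols. All 10 were found, among 43346 annotated genes, with 32 transcripts between them. The series holds 1 group, frontal cortex (labelled frontal lobe) of C57BL/6J mice aged 8 weeks, from littermates with males and females pooled. Its 2 libraries of polyadenylated, rRNA-depleted RNA above 200 nt, with spike-in RNAs added, are labelled biological replicates 1 and 2 and were read as stranded pairs (PE101). Both carry the same donor identifier, but sex-linked genes (below) set them apart, so they are not libraries of the same animal or the same mixed pool. The spread between them may be technical as well as biological.

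A typical synaptotagmin has 1 segment that crosses the vesicle membrane and a pair of C2 domains that face the cytoplasm. In the members that bind calcium, the C2 domains turn toward the phospholipids of the plasma membrane when calcium enters the terminal, and act there with the SNARE proteins that fuse the vesicle. Other members lack some of the acidic residues that hold calcium and work in steps of vesicle traffic that do not need it. In the forebrain Syt1 is known as the main sensor for fast transmitter release, and Syt2 takes that place in the hindbrain and in some inhibitory neurons.

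Expected counts (estimated fragments) summed to 106084891 in replicate 1 and 90476207 in replicate 2. Levels are deposited TPM, a share of all transcripts after division by length, and are given as mean ± SD over 2 libraries. The Xist transcript had 107 counts in replicate 1 and 77696 in replicate 2, whereas 4 Y-linked genes had 1777 to 7150 counts in replicate 1 and 1 to 3 in replicate 2, so the libraries go against their label of pooled sexes. Any difference between the libraries cannot be told apart from that split, and the level of each of the 10 genes is given for each library. Markers of excitatory neurons (4 of 4), inhibitory neurons (3 of 3), astrocytes, oligodendrocytes and microglia (4 of 4 each) and endothelial cells (3 of 3) reached 1 TPM, and 1 of 4 markers of adrenal and pituitary cells did, Pomc at 2.96 and 2.66 TPM.

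Reads of related genes can be shared, so the coding sequences of the 10 genes were compared first. Aligned over their whole length, the 45 pairs had a median identity of 48.8% of alignment columns, from 39.2% for Syt5 and Syt7 to 72.6% for Syt1 and Syt2. Syt2 and Syt5 (61.4%), Syt1 and Syt5 (61.3%) and Syt4 and Syt11 (61.2%) followed. Syt3 and Syt7 stood at 51.0%. For Syt7 the GENCODE M21 form of Syt7-202 was aligned, with 1833 coding nt, which is longer than the deposited length of that transcript allows, so its values hold for the M21 form. Coding lengths ran from 1158 nt for Syt5 to those 1833 nt, and gaps count against identity, which lowers the values of Syt3 and Syt7, the longest.

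**Figure D1:**
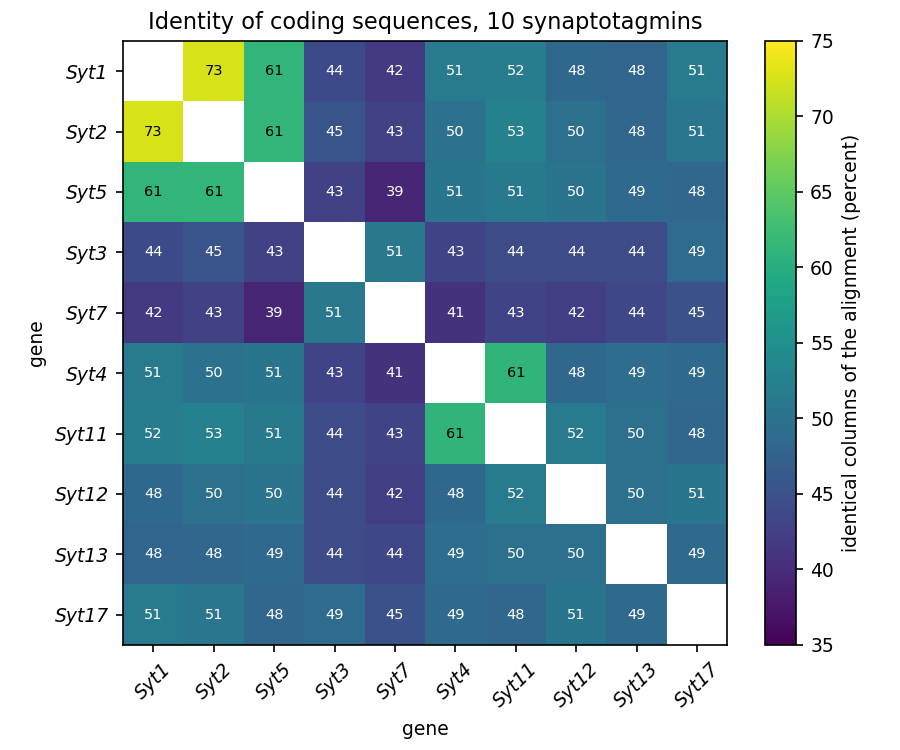
Percent of identical columns in the pairwise global alignment of coding sequences of the 10 genes, 1 cell per pair, with both axes listing the genes. Syt1, Syt2 and Syt5 form the block of 61.3 to 72.6%, Syt4 and Syt11 share 61.2%, and the row of Syt7 has the lowest values.

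The longest run of identical bases in any pair of coding sequences was 26 nt, in Syt1 and Syt2, far under the read length. Capitals mark this run between the bases on either side, printed to show how soon the closest pair diverges. Sequences here and further on are from GENCODE M21 transcripts (GRCm38, the same assembly as mm10), 5′ to 3′.
Syt1: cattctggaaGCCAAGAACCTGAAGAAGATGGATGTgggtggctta
Syt2: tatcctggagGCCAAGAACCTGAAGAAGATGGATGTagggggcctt

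Syt1 and Syt5 shared a run of 25 nt and Syt2 and Syt5 one of 23 nt (not printed). A shorter stretch lies in 3 of the genes known to bind calcium. Syt3 and Syt7 shared a run of 19 nt, and Syt2 held its first 18 nt. Such runs are not limited to those genes, as Syt3 and Syt17 shared a different run of 18 nt. Capitals mark the bases shared in each pair of the lines below, 19 nt in the upper and 18 nt in the lower pair.
Syt3: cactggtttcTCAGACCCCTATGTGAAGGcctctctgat
Syt7: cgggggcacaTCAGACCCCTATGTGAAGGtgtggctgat
Syt2: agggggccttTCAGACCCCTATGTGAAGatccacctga
Syt7: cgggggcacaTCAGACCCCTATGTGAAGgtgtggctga

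No pair of the 10 genes (0 of 45) shared a coding run as long as a read. For 9 of the 10 genes the deposited expected count was a whole number in both libraries, to within 0.005. The exception was Syt11, at 68779.55 and 55780.36 counts. On the same strand, its transcripts share runs of a read's length with 5 other genes, among them 1500004A13Rik at 52.0 and 43.4 TPM, whose counts were also not whole. The deposited posterior SD of the Syt11 count came to 0.00622% of that count in replicate 1 and 0.00792% in replicate 2.

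The 10 genes summed to 861 TPM in replicate 1 and 781 TPM in replicate 2. Syt1 took 40.5 ± 0.872% of that sum and Syt11 23.7 ± 0.0915%. The 5 members known best for binding calcium, Syt1, Syt2, Syt3, Syt5 and Syt7, took 61.2% of the sum in replicate 1 and 62.6% in replicate 2. The remaining share, 38.1 ± 0.979%, was that of Syt4, Syt11, Syt12, Syt13 and Syt17, and most of it was Syt11. All 10 genes reached 1 TPM in both libraries, where 14599 of the 43346 annotated genes had a mean of 1 TPM or more. Their median level was 41.3 TPM, where the median of the 14599 genes at a mean of 1 TPM or more was 12.5 TPM.

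Among the fast calcium sensors, Syt1 had 343 TPM in the first library and 321 TPM in the second (ENSMUSG00000035864.10, mm10 chromosome 10, 108497650 to 109010982, minus strand). Its mean of 332 ± 15.7 TPM put it at rank 191 of 21461 nuclear protein-coding genes. It was the highest of the 10 in both libraries. Syt2, its closest relative by sequence, stood at 2.83 and 4.37 TPM, the lowest of the 10 in both (ENSMUSG00000026452.11, chromosome 1, 134646677 to 134762593, plus strand). Its mean of 3.60 ± 1.09 TPM gave rank 11054. The pair that is most alike in sequence thus lay at the opposite ends of the order of levels.

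Syt5, a calcium-binding member of the Syt1 group found on dense-core and synaptic vesicles, stood at 71.3 and 64.7 TPM, mean 68.0 ± 4.64 TPM (ENSMUSG00000004961.6, chromosome 7, 4539765 to 4547541, minus strand). Syt7 is a high-affinity, slow sensor that serves asynchronous release and facilitation at synapses and lysosome exocytosis elsewhere. It stood at 79.98 and 70.75 TPM, mean 75.4 ± 6.53 TPM (ENSMUSG00000024743.10, chromosome 19, 10389090 to 10453180, plus strand). Syt7 was above Syt5 in both libraries, by 0.17 and 0.13 on the log2 scale. Syt3, a calcium-binding member also known for a role in the internalization of AMPA receptors, stood at 29.55 and 27.9 TPM, mean 28.7 ± 1.14 TPM (ENSMUSG00000030731.9, chromosome 7, 44384102 to 44400187, plus strand).

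Of the members known for weak or absent calcium binding, Syt11 was the most abundant at 205 and 185 TPM, mean 195 ± 14.1 TPM and rank 402 (ENSMUSG00000068923.10, chromosome 3, 88744700 to 88775164, minus strand). Syt11 is known as an inhibitor of endocytosis and as a substrate of the ubiquitin ligase parkin. Its relative Syt4, which acts on dense-core vesicles and whose transcript is known to be induced by depolarization, stood at 32.8 and 27.7 TPM, mean 30.2 ± 3.57 TPM (ENSMUSG00000024261.5, chromosome 18, 31437808 to 31447406, minus strand). Syt11 was therefore the higher of this pair in both libraries.

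Syt13, an atypical member without a calcium site, stood at 53.3 and 51.3 TPM, mean 52.3 ± 1.38 TPM (ENSMUSG00000027220.2, chromosome 2, 92915098 to 92956058, plus strand). Syt12, a vesicle protein that is phosphorylated by protein kinase A, stood at 10.6 and 10.1 TPM, mean 10.4 ± 0.368 TPM (ENSMUSG00000049303.6, chromosome 19, 4445908 to 4477447, minus strand). Syt17, which has no membrane-spanning segment and is found at the Golgi apparatus, had 32.9 TPM in the first library and 18.6 TPM in the second (ENSMUSG00000058420.5, chromosome 7, 118380717 to 118448222, minus strand). Its mean was 25.7 ± 10.1 TPM, the widest spread of the 10 relative to the mean. Replicate 1 was the higher library for Syt17 and replicate 2 for Syt2, whereas the other 8 genes differed less.

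**Figure D2:**
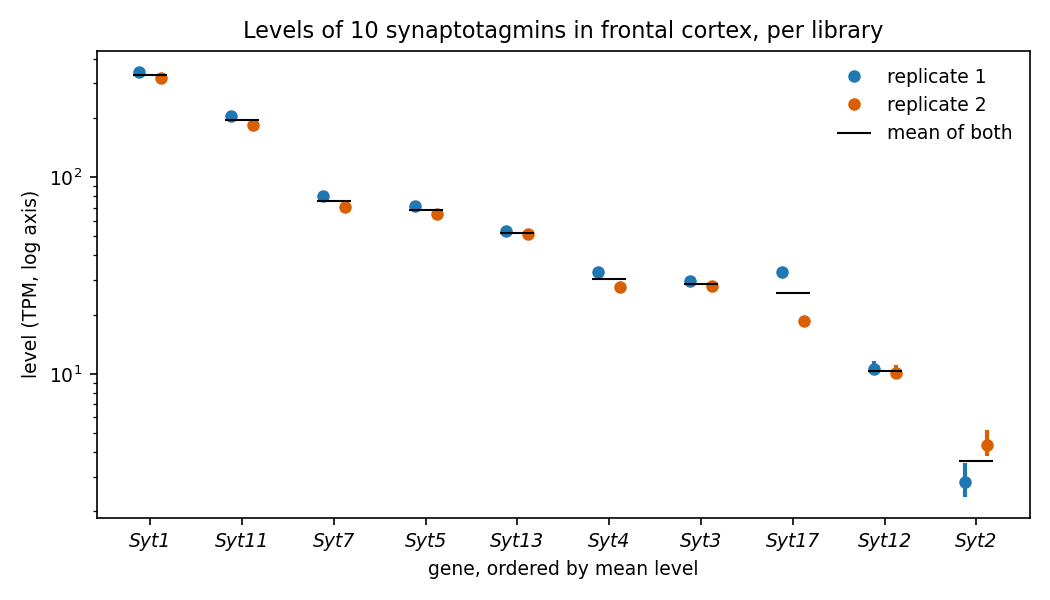
Level of each gene in TPM on a log axis, with 1 point per library, the bounds the authors deposited as vertical lines and the mean of both libraries as a dash. Syt1 leads at 343 and 321 TPM, Syt2 is last at 2.83 and 4.37 TPM, and the points of Syt17 lie farthest apart among the middle genes.

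Neighbours in the order of mean levels were called apart when their log2 TPM ratio had the same sign in both libraries, its mean exceeded its SD and the deposited TPM bounds did not overlap in either library. By that rule 7 of 9 neighbouring pairs were apart. Syt1 exceeded Syt11 by 0.77 ± 0.04 (SD, n = 2), Syt11 exceeded Syt7 by 1.37 ± 0.02 and Syt7 exceeded Syt5 by 0.15 ± 0.03. Syt5 exceeded Syt13 by 0.38 ± 0.06 and Syt13 exceeded Syt4 by 0.80 ± 0.13. Syt17 exceeded Syt12 by 1.25 ± 0.53 and Syt12 exceeded Syt2 by 1.56 ± 0.49. Syt4, Syt3 and Syt17 had no fixed order: Syt4 over Syt3 was 0.15 in replicate 1 and −0.01 in replicate 2, and Syt3 over Syt17 was −0.15 and 0.59. Syt17 ranked 6 of the 10 in replicate 1 and 8 in replicate 2. With 2 libraries an exact two-sided sign-flip test cannot go under p = 0.5, so no p-values are given.

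These orders rest on division by length. Syt5 has a deposited length of 1747 nt and Syt13 of 3761 nt, and by expected counts alone Syt5 stood under Syt13, at −0.83 on the log2 scale. Without division by length Syt17 over Syt12 was 0.08 ± 0.55, within its spread. For Syt17 the deposited annotation holds 1 transcript of 1617 nt, and the same transcript has 2764 nt in GENCODE M21. What that difference does to its TPM was not tested.

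Between the libraries, log2 ratios of replicate 2 over replicate 1 were taken from CPM (counts scaled to a common library size) with TMM factors, with a prior count of 2. The median over the 10 genes was 0.01 and over all 14599 genes −0.00. By this measure 2 of the 10 genes were past 0.5 in either direction, where 5.21% of all genes were. Syt2 was higher in replicate 2, at 913 and 1515 counts and a ratio of 1.01 (95% counting interval 0.89 to 1.13). Among all genes 2.34% were higher by 0.5 or more. Syt17 was lower in replicate 2, at 3832 and 1950 counts and a ratio of −0.69 (counting interval −0.77 to −0.62). Among all genes 2.86% were lower by that much. With 1 library on each side these differences have no replicate check.

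The other 8 ratios lay between −0.11 for Syt4 and 0.08 for Syt12. Syt1 was at 0.02 with an interval of 0.01 to 0.03, Syt11 at −0.02, Syt7 at −0.04 and Syt5 at −0.01. Syt13 and Syt3 stood at 0.08 each. Intervals cover counting error only, as reads that carry no molecular identifiers may be copies of 1 molecule. Ratios were below 0 for 5 of the 10 genes and for 50.5% of all genes, a balance that the scaling itself sets for all genes.

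**Figure D3:**
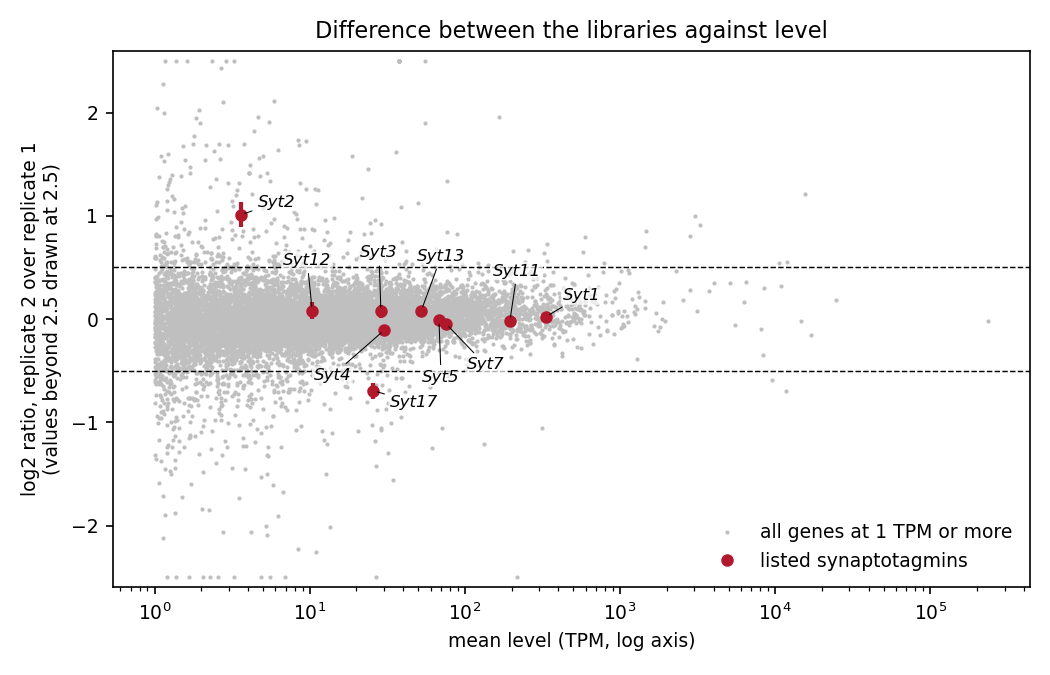
Log2 ratio of replicate 2 over replicate 1 against mean level in TPM on a log axis, with all 14599 genes in grey, the 10 synaptotagmins in red with 95% counting intervals and dashed lines at 0.5 in each direction. Ratios beyond 2.5 are drawn at 2.5. Syt2 at 1.01 and Syt17 at −0.69 lie outside the lines, and the other 8 lie near 0.

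On the deposited TPM scale the median of all genes lay at −0.12 with a pseudocount of 1, and the members shift with it. With that pseudocount Syt1 was at −0.10, near that median, Syt17 at −0.79 and Syt2 at 0.49, so 1 gene in place of 2 was past 0.5. The bounds deposited for TPM were apart between the libraries for 8 of the 10 genes, where 48.7% of all genes had bounds apart. Of these, 7 were lower in replicate 2 (42.1% of all genes) and Syt2 alone was higher (6.63% of all genes). Syt1 and Syt13 were among the lower ones by TPM, but their CPM ratios of 0.02 and 0.08 were above 0. In replicate 1 the bounds were 338.1 to 342.8 TPM for Syt1 and 2.38 to 3.51 TPM for Syt2, wider relative to the lower level. The bounds of Syt1 surround its posterior mean, 340.46 TPM in replicate 1. Its deposited TPM of 342.98 lies just above them, as does that of 320.79 in replicate 2, where the upper bound was 320.5. The 10 genes had a higher median level than all genes (41.3 against 12.5 TPM), so these shares do not compare genes of like level. The bounds of Syt3 and Syt12 overlapped.

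Markers of fast-spiking parvalbumin interneurons, among the cortical cells known to make Syt2, summed to 81.1 TPM in replicate 1 and 99.3 TPM in replicate 2 over 4 genes. Pvalb was at 18.9 and 31.0 TPM, a log2 ratio of 0.83, and Erbb4 at −0.03 bounded the list from below. All 4 reached 1 TPM, and 3 of 4 had a ratio above 0, as did 7224 of all 14599 genes. Kcnc1 was at 0.30 and Kcnc2 at 0.19, so Pvalb alone was past 0.5, where 2.34% of all genes were higher by that much. Their part in the Syt2 difference was not tested. In bulk tissue, fewer cells of a type and less RNA per cell cannot be told apart. Vamp1, a vesicle SNARE that is also abundant in such neurons, was at 42.2 and 50.8 TPM, a ratio of 0.39. That was the highest ratio among the 21 listed partners in vesicle fusion.

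All 7 listed activity-induced genes were higher by 0.5 or more, where 2.34% of all genes were, from 0.85 for Egr1 to 1.91 for Fosb, with a median of 1.12. Their summed level was 197 TPM in replicate 1 and 399 TPM in replicate 2. Syt4, the member known for induction by activity, stood at −0.11 (counting interval −0.15 to −0.06), on the other side of 0. Its bounds for TPM were 31.9 to 33.2 in replicate 1 and 26.9 to 28.1 in replicate 2.

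Of the other cell type lists, only the microglial one had members past 0.5, 2 of 4, both lower, where 2.86% of all genes were. Oligodendrocyte markers summed to 1694 and 2087 TPM, with a median ratio of 0.43, and inhibitory neuron markers to 598 and 760 TPM, with a median of 0.17. Most of the latter rise was in Gad1, at 468 and 631 TPM but 79612 and 73517 counts, a ratio of 0.17. Slc32a1 stood at 81.4 and 86.0 TPM and Gad2 at 48.5 and 43.3 TPM. Microglial markers summed to 164 and 113 TPM, with a median of −0.46, and all 4 were lower in replicate 2, where 50.5% of all genes had ratios below 0. Excitatory neuron markers (501 and 454 TPM), astrocyte markers (1110 and 1117 TPM) and endothelial markers (81.2 and 72.8 TPM) had medians of 0.11, 0.08 and −0.12. Their part in the differences of Syt2 and Syt17 was not tested.

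Transcripts were described by the percent of the gene's TPM that each took, as deposited. In 10 of 10 genes the same transcript led in both libraries. Syt4, Syt5, Syt13 and Syt17 had a single transcript in the deposited annotation, so nothing can be said of their isoforms. Syt1-201 took 85.5% of Syt1 in replicate 1 and 84.3% in replicate 2. Syt1-202, which has the same coding sequence, took 4.93 and 4.80%. Syt1-206, a transcript of 1113 nt annotated without a coding sequence, took 8.64 and 10.06%. Syt12-201 took 90.9 and 92.8% of Syt12.

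Syt7 was the gene whose TPM was most divided. Syt7-202 took 43.1 and 44.4%, Syt7-203 took 42.3 and 38.3% and Syt7-201 took 14.6 and 17.3%. The deposited lengths of these transcripts are 6474, 6834 and 6342 nt, so the first exceeds Syt7-201 by 132 nt and the second by 492 nt. In GENCODE M21, Syt7 has 4 coding cassette exons between the exons that encode the membrane segment and the C2 domains, of 132, 228, 369 and 123 nt. Among all combinations of these 4, only the 132-nt exon fits the first difference and only the 369-nt and 123-nt exons together fit the second. M21 gives the same identifiers other lengths (6624, 2116 and 1605 nt) and other exons: its Syt7-202 holds the 132-nt, 369-nt and 123-nt exons and its Syt7-203 all 4. The exons of the deposited models are therefore read from lengths alone, and differ from those of M21.

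The 132-nt exon, chr19:10421757-10421888 on the plus strand, is shown in capitals, as is the 123-nt exon, chr19:10430338-10430460, followed by the junction of Syt7-201 that skips all 4. These exons are part of the linker by which Syt7 proteins differ, and the 228-nt and 369-nt exons are not printed. The bases after the 132-nt exon are those of Syt7-202 in M21, the start of the 369-nt exon. The deposited Syt7-202, as read from its length, would lack that junction. In the last line capitals mark the exon downstream of the junction.
Syt7 132-nt exon: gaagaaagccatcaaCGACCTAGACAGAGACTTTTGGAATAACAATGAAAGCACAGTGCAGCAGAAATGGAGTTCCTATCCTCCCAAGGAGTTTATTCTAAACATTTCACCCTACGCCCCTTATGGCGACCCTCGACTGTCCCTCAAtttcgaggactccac
Syt7 123-nt exon: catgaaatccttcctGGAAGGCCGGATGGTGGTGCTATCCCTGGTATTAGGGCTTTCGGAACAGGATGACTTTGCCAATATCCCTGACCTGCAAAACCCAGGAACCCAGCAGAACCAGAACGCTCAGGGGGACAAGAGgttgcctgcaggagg
Syt7-201 junction: gaagaaagccatcaaGTTGCCTGCAGGAGG

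By these shares, transcripts whose length fits an added exon made up most of Syt7 in both libraries, and the shortest form was the least abundant in both. The bounds of TPM were apart between the libraries for Syt7-203, at 33.9 and 27.1 TPM, but overlapped for Syt7-202, at 34.4 and 31.4 TPM, and Syt7-201, at 11.7 and 12.3 TPM. Syt1-201, Syt11-201 and Syt11-205 were among other transcripts with bounds apart and lower in replicate 2. At gene level, 42.1% of all genes had bounds apart and lower in replicate 2, and 6.63% apart and higher. No such share was computed over all transcripts, for these or for the transcripts below.

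Syt11 also had more than 1 coding form. Syt11-201 took 85.7 and 80.05% of its TPM. Syt11-202, which begins at a first exon of its own and has a coding sequence of 372 nt where Syt11-201 has 1290 nt, took 6.85% in replicate 1 and 13.5% in replicate 2. Its TPM was 14.02 and 24.9, with bounds apart, so it was the higher in replicate 2 while the gene as a whole was not. Syt11-205 took 7.06 and 5.19%. It uses an end of the exon at chr3:88748779-88748902 (minus strand) that lies 3 nt further upstream, and its model is annotated as incomplete at the start. The 3 bases that it lacks are in capitals.
Syt11-201: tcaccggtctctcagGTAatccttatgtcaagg
Syt11-205: tcaccggtctctcagatccttatgtcaagg

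The junctions differ by 3 bases only, so the share of Syt11-205 rests on few bases of each read and on a model of 1319 nt against 4567 nt.

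For Syt3, Syt3-202 took 64.2 and 58.7% and Syt3-201 took 15.95 and 23.9%. Their coding sequences are identical and they differ outside it, with bounds of TPM that overlapped between the libraries for both. For Syt2, Syt2-201 of 6879 nt took 57.3 and 68.5% and Syt2-203, a model of 383 nt, took 36.5 and 29.2%. The short model had 15 and 16 counts, whereas Syt2-201 had 894 and 1497 counts. Taken alone, Syt2-201 had 1.62 and 3.0 TPM, with bounds apart. Nearly all Syt2 counts thus fell on the long transcript, while the short model held a large share of its TPM.

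**Figure D4:**
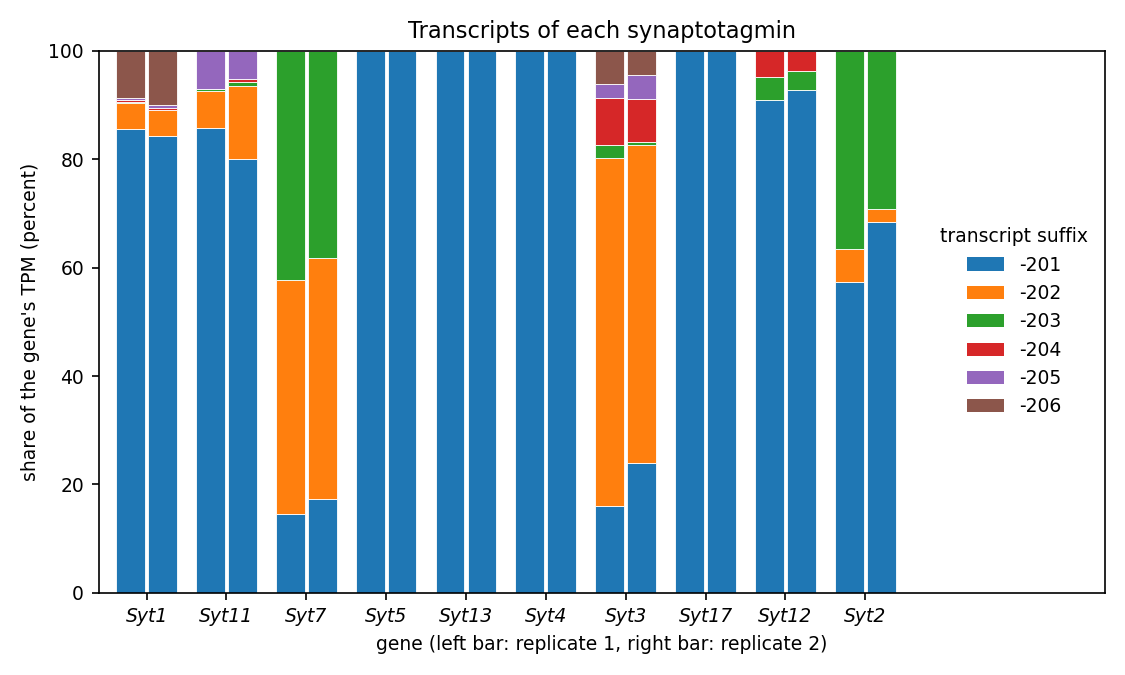
Percent of each gene's TPM taken by each transcript, stacked to 100, with the left bar for replicate 1 and the right bar for replicate 2 of each gene and colours by the number after the gene name. Syt7 is divided among 3 transcripts in both libraries, Syt11-202 goes from 6.85 to 13.5%, and 4 genes have a single transcript.

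Genes that lie over the members can share reads where strand is ignored, and the labels describe stranded libraries without stating how reads were counted. Ppp1r12b overlaps Syt2 on the opposite strand and stood at 33.55 and 30.7 TPM, which is above Syt2. The opposite-strand genes A930001C03Rik over Syt12, Gm26658 over Syt4 and Gm26859 over Syt7 stood at 0.17 TPM or less, and 1700008O03Rik over Syt3 at 1.90 and 1.89 TPM. In GENCODE M21, transcripts of Ppp1r12b share no run of a read's length with those of Syt2, nor do those of 1700008O03Rik with Syt3. The genes over Syt12, Syt4 and Syt7 do share such runs, on the opposite strand. Introns were not searched. The genes over Syt1 in GENCODE M21 were not measured here. Nor were Gm45124 over Syt3 and AC124169.1 over Syt7, each on the same strand as the gene it overlaps. Syt5, Syt11, Syt13 and Syt17 had no overlapping gene.

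Set beside the 10 genes, 19 other genes with more than 1 C2 domain each were measured, and 12 reached a mean of 1 TPM. The most abundant were Doc2g at 149 and 161 TPM, Rph3a, a Rab3 effector on synaptic vesicles, at 96.2 and 101.3 TPM and Syt6, a calcium-binding relative of Syt3, at 32.0 and 33.8 TPM. Only Syt1 and Syt11 of the 10 were above Doc2g. Syt9, which shares the fast sensor role in some forebrain neurons, stood at 7.54 and 5.07 TPM and so above Syt2 in both libraries. The list had a median replicate ratio of −0.01, from −1.01 for Doc2b, a high-affinity calcium sensor of spontaneous release, to 0.24 for Doc2g, and 1 of 12 was past 0.5, where 5.21% of all genes were.

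The 21 partners in vesicle fusion, SNAREs with their regulators and vesicle proteins, all reached 1 TPM and had a median replicate ratio of 0.13, from −0.28 for Sv2b to 0.39 for Vamp1. None of the 21 was past 0.5, where 5.21% of all genes were, and 17 were above 0, as were 7224 of all 14599 genes. Relative to the SNARE gene Snap25, at 1313 and 1348 TPM the most abundant partner, Syt1 stood at −1.94 and −2.07 on the log2 scale of TPM. Vamp2 (621 and 659 TPM) and Syp (497 and 483 TPM), both of the vesicle membrane, were also above Syt1. Syt2 stood at −8.86 and −8.27 relative to Snap25.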

How the data were processed

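Polyadenylated RNA of frontal cortex was sequenced in 2 libraries of 1 group. For each library the authors deposited gene-level and transcript-level tables, on mm10 with annotation M4 as their text description states. No aligner or quantifier is named in the labels or tables. The deposited values used were expected counts, TPM over all entries with spike-ins, and the percent of a gene's TPM per transcript, with posterior means and bounds of TPM (interval level not stated). Deposited FPKM was not used. Of 69691 entries, 43346 were annotated genes, 42462 of which matched GENCODE M21 without version.

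Ratios used rounded expected counts without spike-ins, which took 3.50 and 3.47% of counts, a prior count of 2 and TMM normalization by edgeR 4.0.16 (R 4.3.3; factors 1.02 and 0.982). Genes at a mean of 1 TPM or more (14599) gave the background. Counting intervals are exact conditional binomial intervals at 95%. The ratio script was tested on simulated data with 200 changed genes and sampling noise alone. The libraries differed beyond sampling noise (chi-square per degree of freedom 52.7), so that test does not show how often ratios pass the threshold here. Coding sequences came from the leading transcripts and were aligned with Biopython 1.88 (global, gaps counted). Alternatives covered DESeq2 1.42.0 size factors, library size, spike-in total, prior counts, pseudocounts, posterior means, length division, thresholds and single libraries. With 2 libraries an SD has 1 degree of freedom, and no likeness of pattern between genes was computed.

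All 10 genes are named. From the lists of other C2 domain genes and of partners in vesicle fusion, the 3 most abundant by mean TPM and those that bound the range of ratios are named. Of the activity-induced genes, only those that bound the range are named. No member of the excitatory neuron, astrocyte, oligodendrocyte, microglial and endothelial lists is named. Transcripts that lead their gene or take a mean of 10% or more are named. Others named, among them Syt9, Pvalb, 1500004A13Rik, Syt1-206, Syt1-202 and Syt11-205, were picked with their values in view. The members and lists were chosen with earlier results of these data known.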

Additional observations from a re-analysis of the deposited data

How the results depend on the processing

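Of the 10 genes, 2 were past 0.5 between the replicates under TMM factors (5.21% of all genes), library size, DESeq2 size factors, the spike-in total, the prior counts tried, posterior means and TPM with a pseudocount of 0.1 (6.92%). By TPM with a pseudocount of 1, 1 was, Syt17 (4.38% of all genes). With no filter on level it was 2 where 27.0% of all genes were past 0.5. At a log2 threshold of 1 it was 1, Syt2 (1.45% of all genes), and at 0.25 it was 2 (17.9%). With TPM and a pseudocount of 1, Syt2 alone was above 0. Syt2 ranged from 0.49 to 1.01 and Syt17 from −0.82 to −0.69 over the 8 alternatives. The share of Syt1 ranged from 39.8 to 41.1% over single libraries. Neighbouring pairs apart in the order of mean TPM numbered 7. Counts have no TPM bounds and a single library has no SD, so each of the next numbers rests on the rest of the rule: 8 with counts divided by full length, 7 with counts not divided, and 8 in each library alone. Syt3 over Syt17 was −0.15 in replicate 1 alone, the opposite of the mean order, and 0.59 in replicate 2 alone. Syt5 over Syt13 reversed, to −0.83, in counts not divided by length, an alternative that removes the deposited lengths. The 7 pairs apart in those counts were thus not the same 7. Syt17 over Syt12, at 0.08, was no longer apart, whereas Syt4 over Syt3, at 0.99, and Syt3 over Syt17, at 0.69, were. With counts divided by full length, Syt4 over Syt3, at 0.14, was the pair added. Levels rescaled to nuclear protein-coding genes were 1.98 and 2.08 times the TPM in replicates 1 and 2. No paired analysis was possible because the series has 1 group. Depth limits Syt2 most, at 913 and 1515 counts.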
